A study of Mus musculus with 20 samples.

Results

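Described here are 39 genes of DNA replication and S phase in bulk RNA sequencing of mouse microglia. They were looked up by name in a table of 55487 gene identifiers. These genes, called members below, and the wider lists were chosen with earlier results of these data known. Their shares beside those of all genes are therefore descriptions. All 39 were found under 1 identifier each, and all 39 were among the 16595 genes that passed a filter on low counts. The study asked how microglia carrying the V600E form of BRAF, a constantly active kinase of the ERK cascade, differ from control microglia by brain region and stage. It holds 20 libraries from 10 mice, 1 cortex library and 1 brainstem library per mouse. Levels are given as CPM, a gene's count per 1000000 counts of its library, with library size scaled by TMM, a normalisation for library composition.

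In the mutant mice, labelled Braf VE and CX3 HET, Cx3cr1CreER recombined the Braf LSL-V600E allele after a single dose of 37.5 mg per kg 4-hydroxytamoxifen given to the pregnant female at embryonic day 9.5. This targets progenitors of microglia, and later cells of that lineage carry the allele. Each library number below is a separate mouse. By the reading given below, the 2-month groups were 3 mutants and 3 controls. In the sample records the label of 2-month controls is Braf WT and CX3 HET. Those records give the other genotype for 4 of these 6 mice, so the labels here do not describe each of them. The end-stage groups were 2 mutants and 2 controls, of which control M1375 was labelled Braf VE and CX3 WT and control M1521 was labelled Braf WT and CX3 HET. Library totals ran from 9395203 to 21171114 counts. The microglial genes Tmem119 and P2ry12 were high in every library, at 4150 to 12500 CPM and 1050 to 8960 CPM. Counts per gene cannot show the V600E base change, and Braf itself ran from 5.74 to 16.3 CPM in the 2-month mutant cortex-labelled libraries and from 12.8 to 16.5 CPM in the controls.

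Labels conflict for the 2-month mice. In 5 of these 6 mice the mouse number in the sample title differs from the number in the name of the count column, and 4 of them change genotype with the choice. Genotype was read here from the mouse number of the column, which makes M2617, M2621 and M2624 mutants and M2618, M2629 and M2633 controls. Under the sample record M2617 and M2621 are controls and M2618 and M2633 are mutants, while M2624 and M2629 keep their genotype. Values are therefore given mouse by mouse, and which reading holds was not tested. The region labels are also in doubt. Hoxb5, a gene of the hindbrain and spinal cord, had 2 counts in all brainstem-labelled libraries together and 101 in the cortex-labelled ones. The summed CPM of 39 Hox genes favoured the cortex-labelled library of 8 of the 10 mice. Libraries are called by their label throughout.

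A cell copies its genome once per division. The origin recognition complex (ORC) with CDC6 and CDT1 loads the MCM helicase on DNA in G1 phase, CDC45 and the GINS complex activate the helicase in S phase, and polymerases loaded by replication factor C and the PCNA clamp copy the strands. E2F transcription factors, released from the retinoblastoma protein when cyclins D and E activate their kinases, drive many of these genes. Adult microglia renew slowly, so most of them are outside S phase at any time.

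Some members, among those that rose at 2 months and those that did not, have promoters that hold letters known as E2F sites. The 250 bases before the RefSeq start (GRCm38.p6) are given for 4 members, to show these sites beside the members' values. Capitals mark every match to TTTCCCGC, TTTGGCGC, TTTCGCGC or TTTGCCGC on either strand, and overlapping matches run together. The windows were chosen for holding a match: members with a match were taken in order of their smallest p in the genotype comparisons, and windows that reach into an annotated exon were passed over. Rfc5, Lig1, Tk1 and Pold1 come before Uhrf1 in that order and hold none. Each run is on the strand of its gene, 5′ to 3′.
Mcm5, chr8:75109259-75109508, plus strand: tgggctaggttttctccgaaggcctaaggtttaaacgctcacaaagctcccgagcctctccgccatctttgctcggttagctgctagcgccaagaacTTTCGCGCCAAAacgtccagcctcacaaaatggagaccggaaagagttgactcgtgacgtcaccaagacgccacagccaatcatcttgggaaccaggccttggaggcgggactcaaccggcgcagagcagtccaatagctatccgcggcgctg
Mcm6, chr1:128359706-128359955, minus strand: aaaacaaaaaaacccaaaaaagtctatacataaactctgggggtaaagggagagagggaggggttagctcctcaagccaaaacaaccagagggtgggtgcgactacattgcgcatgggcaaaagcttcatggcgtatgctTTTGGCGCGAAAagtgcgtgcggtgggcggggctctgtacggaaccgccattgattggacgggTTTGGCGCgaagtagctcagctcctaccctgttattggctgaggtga
Uhrf1, chr17:56304063-56304312, plus strand: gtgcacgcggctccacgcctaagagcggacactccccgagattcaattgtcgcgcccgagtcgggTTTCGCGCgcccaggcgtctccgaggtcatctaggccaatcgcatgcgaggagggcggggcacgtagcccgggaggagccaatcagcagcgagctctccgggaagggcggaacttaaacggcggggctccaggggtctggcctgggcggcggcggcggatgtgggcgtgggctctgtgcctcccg
Pola1, chrX:93632156-93632405, minus strand: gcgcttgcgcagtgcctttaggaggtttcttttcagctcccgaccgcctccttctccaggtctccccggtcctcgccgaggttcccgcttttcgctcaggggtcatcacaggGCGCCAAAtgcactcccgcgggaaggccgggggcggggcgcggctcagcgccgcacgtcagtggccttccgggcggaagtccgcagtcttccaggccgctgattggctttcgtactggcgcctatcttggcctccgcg

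The Mcm5 window holds 2 overlapping matches, 1 on each strand, and the Mcm6 window holds 3. Uhrf1 and Pola1 hold 1 match each. At 2 months in cortex-labelled libraries Mcm5, Mcm6 and Uhrf1 rose in mutants and Pola1 did not pass the test. The RefSeq start used for Uhrf1 lies 992 bases inside the GENCODE gene, and none of the 4 windows touches an annotated exon. A match describes letters only and shows no binding.

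At 2 months in cortex-labelled microglia, 14 of the 39 members were higher in mutants at an adjusted p of at most 0.05 and 0 were lower, by edgeR's quasi-likelihood test with Benjamini-Hochberg adjustment over all genes. Of all genes tested, 3.64% were called higher and 1.81% lower. The members' median log2 difference was 1.09, against -0.01 for all genes. Of the members' differences 37 of 39 were positive, against 8104 of 16595 over all genes. In 24 of 39 members all 3 mutant libraries lay above all 3 controls, against 13.4% of all genes. The called members span the pathway from the loading of the helicase to nucleotide supply and the sealing of DNA. In bulk RNA a larger share of cells in S phase and more transcript per cell cannot be told apart.

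**Figure D1:**
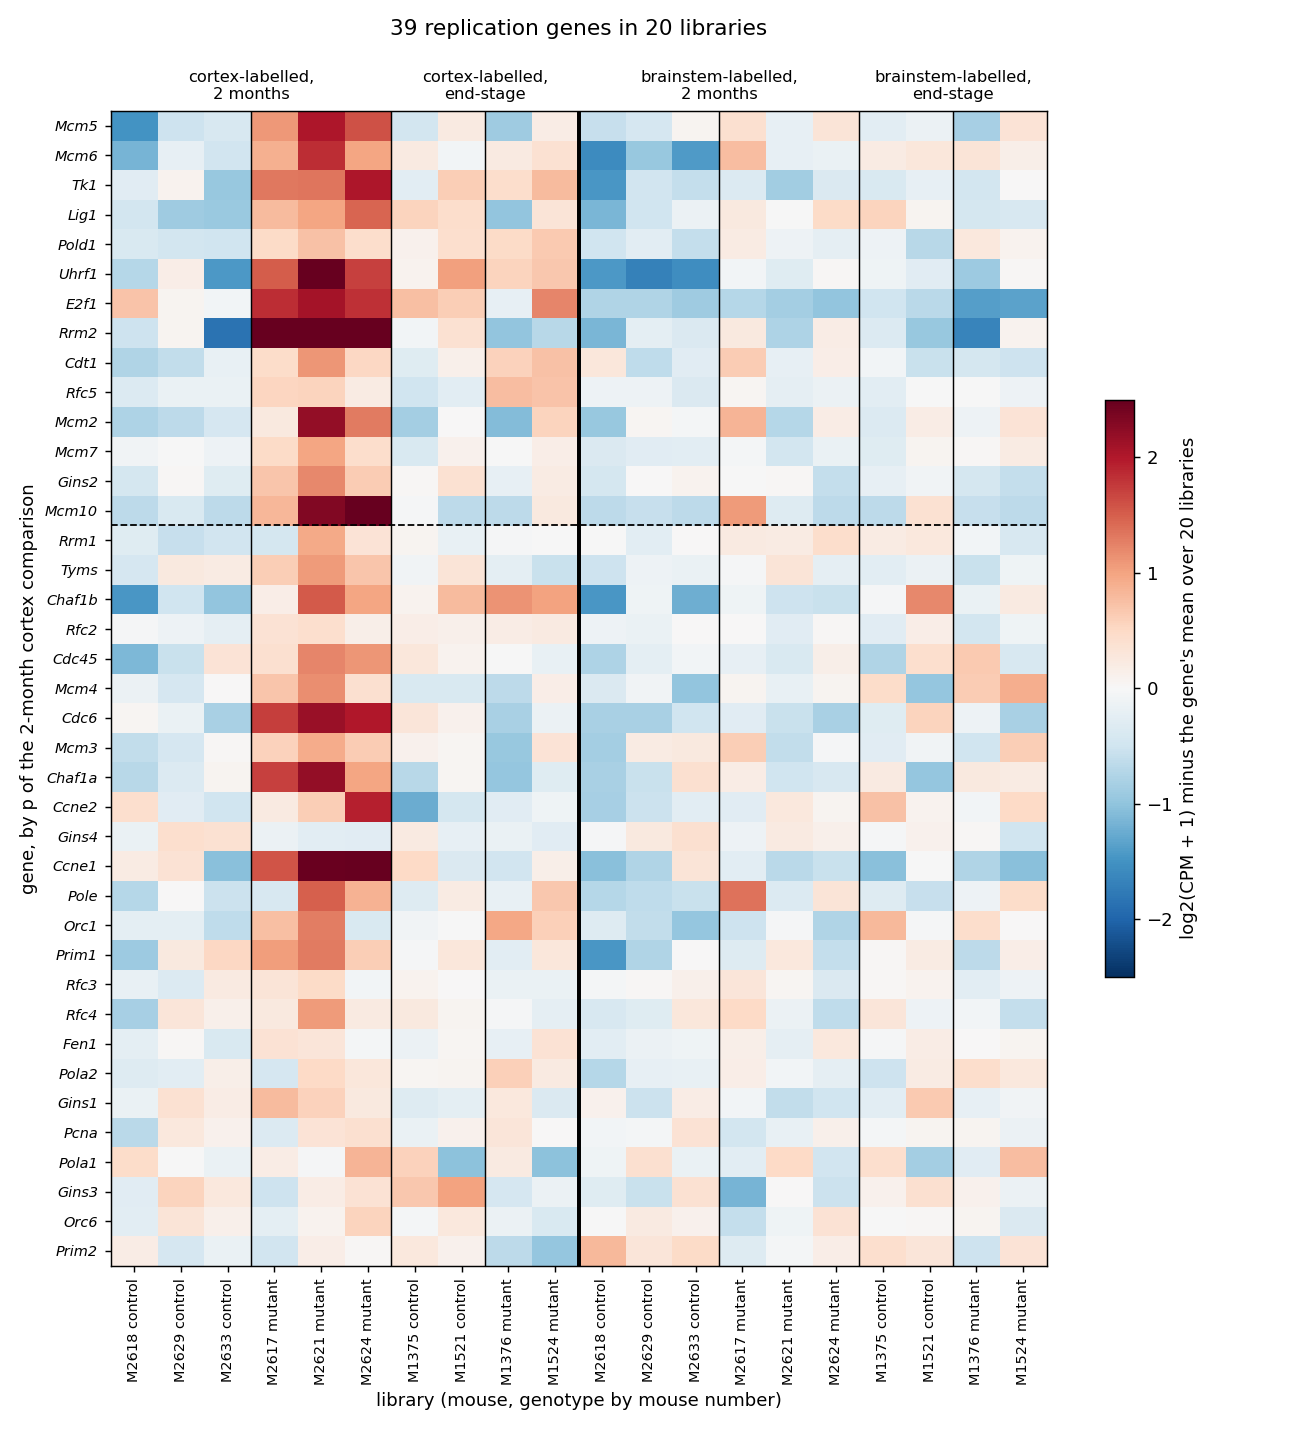
Level of each of the 39 genes (rows) in each of the 20 libraries (columns), as log2(CPM + 1) minus the gene's mean over the libraries; red is above the mean and blue below, with colours saturating at the ends of the scale. Genes are ordered by p of the 2-month cortex comparison, and the 14 genes above the dashed line passed the threshold. The 3 columns of 2-month mutants with the cortex label are red over most of the upper rows.

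This result rests on the reading of the labels. Under the sample record 0 of 39 members were called in the same comparison, as was 1 gene of all genes tested, against 904 under the mouse-number reading. The difference changed sign for 13 of the 14 called members. With the 4 mice of differing genotype left out, 1 mutant (M2624) remains against 1 control (M2629), and 0 members were called. Such a fit takes its spread from the other groups, and both mice are also in the full comparison, so it does not bear on which reading holds.

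The helicase ring itself is taken first. Values below are in the order M2617, M2621 and M2624 for the 2-month mutants and M2618, M2629 and M2633 for the controls. Mcm5, a subunit of the helicase ring, stood at 34.2, 66.5 and 49.5 CPM in mutants and at 4.92, 10.7 and 11.6 CPM in controls. The lowest mutant was well above the highest control, and the log2 difference was 2.47 ± 0.41 SE (5.52-fold, adjusted p = 0.00193). Mcm6, its neighbour in function, stood at 39.2, 77.1 and 41.9 CPM against 8.75, 18 and 14.6 CPM, a log2 difference of 1.93 ± 0.33 (3.82-fold, adjusted p = 0.0022). Mcm2 was the most uneven of the called subunits, at 18.3, 73.9 and 38.9 CPM in mutants against 8.47, 9.32 and 11.2 CPM. Its groups did not overlap, and its log2 difference was 2.18 ± 0.53 (adjusted p = 0.0196). Mcm7 moved less, from 29.6, 31.4 and 28.7 CPM in controls to 44.2, 63.6 and 43.1 CPM (log2 difference 0.75 ± 0.19, adjusted p = 0.0242).

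The remaining ring subunits leaned the same way without passing. Mcm3 stood at 67.8, 87.3 and 70.4 CPM in mutants and 29.2, 33.6 and 45.9 CPM in controls, with no overlap (log2 difference 1.05, adjusted p = 0.118). Mcm4 stood at 18.7, 26.6 and 15.1 CPM against 10, 8.21 and 11.4 CPM (log2 difference 1.03, adjusted p = 0.113).

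Cdt1, which brings the ring to the origin, rose from 7.22, 8.06 and 11.3 CPM to 18, 28.8 and 18.8 CPM (log2 difference 1.31 ± 0.31, adjusted p = 0.0161). Cdc6, its partner at the origin, was at 0.82, 0.551 and 0 CPM in controls and 4.83, 6.87 and 6.02 CPM in mutants, a wide gap at low counts (adjusted p = 0.115). The 2 ORC members differed from each other: Orc1 had a log2 difference of 2.05 with overlapping groups (adjusted p = 0.205), and Orc6 one of 0.10 (adjusted p = 0.907).

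Among the factors that start the fork, Mcm10 and Gins2 passed. Mcm10, a scaffold that helps the helicase open, had 0 counts in controls M2618 and M2633 and 0.2 CPM in M2629, and stood at 1.77, 6.77 and 10.4 CPM in mutants. Its fitted log2 difference of 6.32 ± 1.81 (adjusted p = 0.0497) depends on the prior count used against zeros, so no fold is given. Gins2, a subunit of the GINS complex, rose from 3.66, 5.46 and 4.16 CPM to 9.23, 13.6 and 8.91 CPM (log2 difference 1.25 ± 0.32, adjusted p = 0.0255). Exons of Gse1 cover 67.3% of the annotated exon bases of Gins2, so reads can be shared. The other GINS genes did not follow it. Gins4, the highest member per kb of exon, was at 33.3, 30.5 and 30 CPM in mutants and 32.8, 49.9 and 48.6 CPM in controls (log2 difference -0.49, adjusted p = 0.172), and Gins1 and Gins3 had log2 differences of 0.46 and -0.18. Cdc45, which joins GINS on the helicase, had a log2 difference of 1.54 with no overlap of the groups (adjusted p = 0.104).

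Of the 6 genes of polymerases and primases 1 passed. Pold1, the catalytic subunit of polymerase delta, was at 26.6, 31.9 and 25.9 CPM against 14.1, 13.3 and 13.1 CPM (log2 difference 1.06 ± 0.20, 2.09-fold, adjusted p = 0.00435). Pole, of polymerase epsilon, lay under 3.6 CPM in every library, and its groups overlapped in this comparison (log2 difference 2.84, adjusted p = 0.19). The polymerase alpha genes Pola1 and Pola2 had log2 differences of 0.43 and 0.32, and the primase genes Prim1 and Prim2 of 1.09 and 0.05, with adjusted p from 0.249 to 0.956.

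Of the clamp and its loader 1 gene passed. Rfc5, a subunit of the clamp loader replication factor C, rose from 16.2, 18.4 and 18.4 CPM to 30.9, 31.1 and 24.4 CPM (log2 difference 0.71 ± 0.17, adjusted p = 0.0177). Rfc2 was at 103, 107 and 87.9 CPM against 78.7, 72.7 and 68.6 CPM, with no overlap but a small difference (log2 difference 0.44, adjusted p = 0.098). Pcna, the sliding clamp and a common marker of proliferation, overlapped between the groups, at 32.6, 53.6 and 55.3 CPM against 25.9, 50.1 and 45.1 CPM (log2 difference 0.23 ± 0.24, adjusted p = 0.687). Rfc3 and Rfc4 had log2 differences of 0.37 and 0.70 and did not pass.

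Lig1, the ligase that joins Okazaki fragments, stood at 12.2, 14.1 and 19.7 CPM in mutants and 4.48, 3.11 and 2.97 CPM in controls (log2 difference 2.12 ± 0.39, 4.35-fold, adjusted p = 0.00421). Fen1, the nuclease that trims those fragments, stayed under 1.8 CPM in all 20 libraries (log2 difference 0.73, adjusted p = 0.449). Exons of Tmem258 and Gm10143 cover 84.2% of its exon bases, so reads can be shared.

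Among genes of nucleotide supply Rrm2 and Tk1 passed. Rrm2, the regulated subunit of ribonucleotide reductase, stood at 27.3, 23 and 30.7 CPM in mutants and at 1.69, 3.01 and 0.0661 CPM in controls. Among the other libraries of the series its highest value was 3.97 CPM, and the log2 difference was 4.06 ± 0.86 (16.7-fold, adjusted p = 0.00941). Tk1, the cytosolic thymidine kinase, rose from 6.01, 8.01 and 3.44 CPM to 20.3, 20.6 and 33.6 CPM (log2 difference 2.09 ± 0.39, 4.25-fold, adjusted p = 0.00421). The other subunit of the reductase, Rrm1, was uneven, at 18.1, 49.3 and 32.1 CPM against 20.2, 16.4 and 17.7 CPM, and missed the threshold (adjusted p = 0.0544). Tyms, thymidylate synthase, missed it as well although its groups did not overlap, at 28.2, 39 and 30 CPM against 13.3, 21.5 and 21.1 CPM (adjusted p = 0.0602).

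Of the regulators and chromatin factors of S phase, E2f1 and Uhrf1 passed. E2f1, an activating E2F factor, stood at 18.8, 22.4 and 18.5 CPM in mutants and 8.04, 4.81 and 4.23 CPM in controls (log2 difference 1.80 ± 0.36, 3.49-fold, adjusted p = 0.00585). Uhrf1, which recruits DNA methyltransferase to newly copied DNA, stood at 10.3, 24.4 and 12 CPM against 1.42, 3.46 and 0.462 CPM (log2 difference 3.11 ± 0.59, 8.64-fold, adjusted p = 0.00459). The E-type cyclin gene Ccne1 and the chromatin assembly genes Chaf1a and Chaf1b had log2 differences of 3.09, 3.15 and 3.29 with no overlap, but large errors of 1.26, 1.18 and 1.06 at low levels, and did not pass (adjusted p from 0.0832 to 0.176). Ccne2 had a log2 difference of 1.56 with overlapping groups (adjusted p = 0.145).

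**Figure D2:**
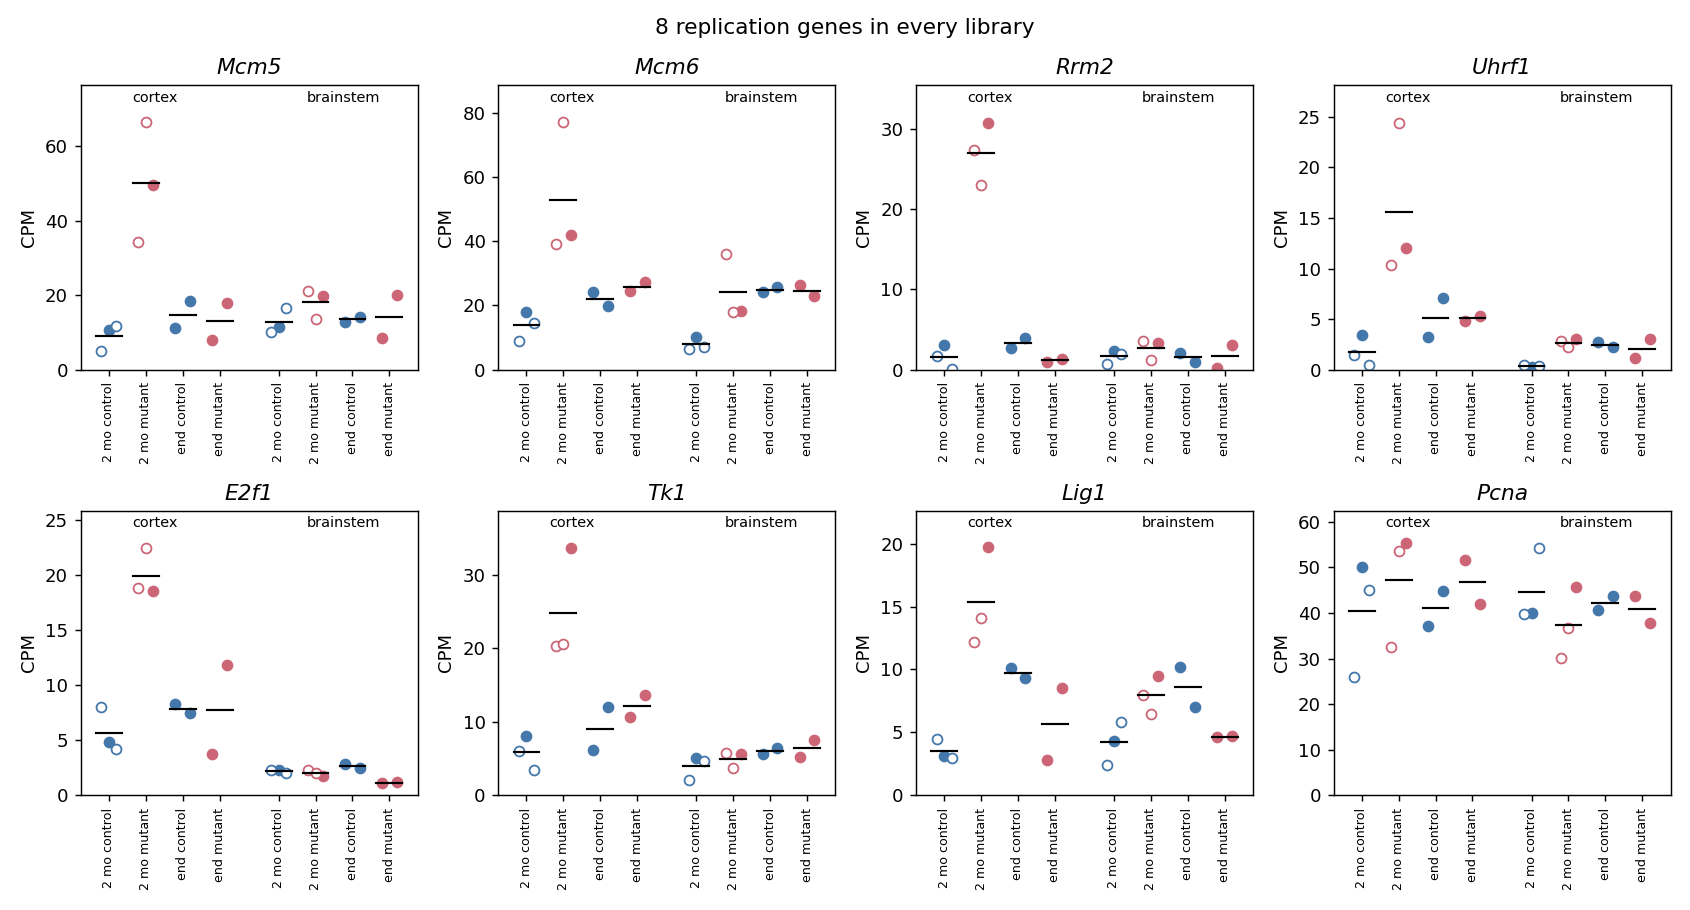
CPM of 8 genes in every library, by region label, stage and genotype; points are mice, short lines are group means, blue is control and red mutant, and open points are mice whose genotype differs between the 2 label readings. In 7 of the genes the 2-month mutants with the cortex label lie above every control of that label and age; Pcna overlaps.

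Not every call was equally firm. Leaving out each of the 10 mice in turn kept 8 members called in all 10 fits: Mcm5, Mcm6, Lig1, Tk1, Pold1, Uhrf1, E2f1 and Rrm2. Without control M2618 or without mutant M2621 the count fell to 8. Mcm10 and Rfc5 passed in 5 of 10 fits, Gins2, Mcm2 and Mcm7 in 6 and Cdt1 in 7. Only 6 of the 10 fits removed a mouse of this comparison. Those without M1375, M1376, M1521 or M1524 removed an end-stage mouse and gave 14 calls each, so the tallies out of 10 overstate how firm these calls are. Mutant M2621 held the highest of the 3 mutant values for 26 of the 39 members, M2624 for 10 and M2617 for 3. DESeq2 called 22 members higher and 0 lower, including 13 of the 14, and missed Mcm10 (adjusted p = 0.0731).

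Summed over the 39 members, the 2-month mutant cortex-labelled libraries held 746, 1090 and 866 CPM and the controls 417, 497 and 504 CPM. All other libraries of the series held 421 to 620 CPM. For 34 of 39 members the highest of the 20 libraries was one of those 3, a count that was not made over all genes. The sums by mouse show this as a fall from the cortex-labelled to the brainstem-labelled library within each of the 3 mutants. Their cortex-to-brainstem ratios were 1.25, 2.31 and 1.63, against 0.99, 1.03 and 0.957 in the controls M2618, M2629 and M2633 and 1.05 to 1.12 in the 4 end-stage mice. In M2621 the cortex-labelled library was higher for 37 of 39 members, in M2624 for 35 and in M2617 for 29, and in the 2-month controls for 18 to 25. These counts were not made over all genes either. The ratios are taken within a mouse, so they are the same under either reading of the labels, which only changes which mice they are assigned to.

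**Figure D3:**
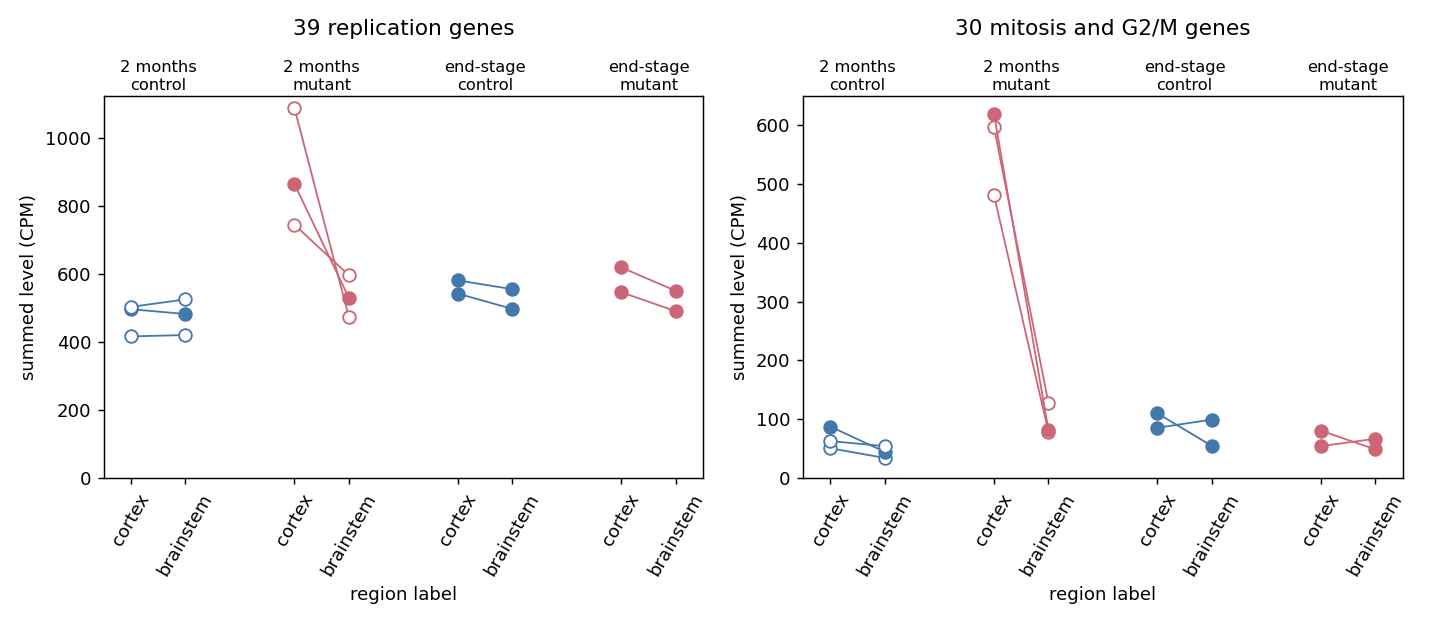
Summed CPM of the 39 replication genes (left) and of 30 mitosis and G2/M genes (right) in each library; a line joins the 2 libraries of a mouse, blue is control, red is mutant and open points are mice whose genotype differs between the label readings. The 3 cortex-labelled 2-month mutants sit at 746 to 1090 CPM on the left and 482 to 620 CPM on the right, above all other libraries.

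Genes of the later cell cycle were compared in the same libraries. Of 30 genes of mitosis and G2/M, 19 were higher in 2-month cortex-labelled mutants and 0 lower, against 3.64% and 1.81% of all genes. The list's median log2 difference was 3.49, against -0.01 for all genes. In 30 of 30 all mutants lay above all controls, against 13.4% of all genes. The called genes were Cdk1, Cenpa, Racgap1, Aurka, Cdc20, Ccnb2, Bub1b, Ccnb1, Aurkb, Ube2c, Stmn1, Kif20a, Plk1, Tpx2, Birc5, Pbk, Cenpf, Top2a and Nusap1. Cdk1, the kinase that starts mitosis, was at 42.8 ± 4.92 CPM against 6.99 ± 2.69 (SD, n = 3 each, log2 difference 2.61, adjusted p = 0.000911). Top2a, the topoisomerase that untangles copied DNA, was at 20.7 ± 5.57 CPM against 1.09 ± 0.995 (adjusted p = 0.0285). Without control M2633 the count of this list fell to 11. Over the 20 libraries the summed members and the summed mitosis genes had r = 0.87 and rho = 0.65 on a log2 scale, a description of libraries that share 10 mice and their depth.

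Of 50 further replication factors, 9 rose and 1 fell, with a median of 0.44. Of all genes, 3.64% rose and 1.81% fell, with a median of -0.01. Risers were Asf1b and Nasp (histone chaperones), Dck and Dut (nucleotide metabolism), Dna2 (a nuclease), Timeless (fork protection), Dnmt1 (maintenance DNA methylation), Atad2 and Samhd1. Timeless stood at 17.9 ± 6.87 CPM against 0.606 ± 0.524 and Asf1b at 28.8 ± 5.49 CPM against 5.48 ± 3.62. Samhd1 breaks down nucleotides. Rrm2b, the reductase subunit used outside S phase, fell from 11.3 ± 1.62 to 4.05 ± 1.02 CPM while Rrm2 rose (log2 difference -1.48, adjusted p = 0.0299). Without M2621 or without M2633 this list had 6 calls in place of 10.

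Among 32 genes of the retinoblastoma and E2F pathway, 6 rose and 1 fell, against 3.64% and 1.81% of all genes. Ccna2, the cyclin of S and G2 phase, was at 20.7 ± 6.26 CPM against 1.1 ± 0.562 (adjusted p = 0.00196), and Ccnd2, a D-type cyclin, at 56.2 ± 22.5 CPM against 5.41 ± 7.63 (adjusted p = 0.0408). Tfdp1, the partner of E2F factors, and Myc rose by 0.74 and 0.80 on the log2 scale. Inhibitors of cyclin-dependent kinases went both ways: Cdkn2c and Cdkn1a rose by 1.91 and 1.59, and Cdkn1c fell by 2.14 (adjusted p = 0.00231). Leaving out M2621, M2624 or M2633 left 4 calls, and DESeq2 made 11.

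Markers of some other cell types were also higher in these libraries. The summed markers of monocytes (4 of 4 found) stood at 59 to 101 CPM in the 2-month cortex-labelled mutants and 1.09 to 6.06 CPM in controls. Nearly all of it was Plac8, at 57.5 to 97.9 CPM against 0.601 to 1.98 CPM. Ly6c2 was also above every control, at 0.244 to 1.13 CPM against 0 to 0.132 CPM. Chil3 was at 0 to 0.618 CPM against 0 to 0.0547 CPM, and Ccr2 at 1.24 to 1.49 CPM against 0.437 to 4.11 CPM. Markers of T and NK cells summed to 0.257 to 0.718 CPM against 0 to 0.109 CPM, also without overlap, with Cd3e and Cd3g at 0 in all 6 libraries. Endothelial and pericyte markers summed to 49.2 to 65.6 CPM against 21.5 to 29.6 CPM. Pecam1, at 34.1 to 54.5 CPM against 19.1 to 28.4 CPM, and Kdr, at 10.5 to 20.4 CPM against 1.2 to 3.01 CPM, made up most of this sum and did not overlap. Cldn5 was at 0 to 0.41 CPM against 0, and Rgs5 at 0 in all 6 libraries. Neural progenitor markers summed to 1.18 to 3.5 CPM against 1.78 to 2.79 CPM, and microglial markers to 42100 to 44200 CPM against 48000 to 49100 CPM. Sums for border-associated macrophages, neutrophils, B and plasma cells, erythroid cells, astrocytes, oligodendrocytes, their precursors and neurons overlapped. In 2-month brainstem-labelled mutants the endothelial and pericyte sum was 107 to 120 CPM against 43.5 to 65.1 CPM. The monocyte sum there was 8.79 to 20.9 CPM against 4.13 to 5.27 CPM. The part of these cells in the result was not tested.

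In brainstem-labelled microglia of the same mice, 0 of 39 members passed, and 2 did by DESeq2. At an unadjusted p under 0.05 were 7 members (17.9%), against 8.8% of all genes. Of all genes tested, 0.0362% were called. The median log2 difference was 0.32, and 6 members lay above the controls with no overlap, against 7.19% of all genes. Mcm6 was the strongest, at 36, 17.9 and 18.4 CPM in mutants and 6.33, 10.3 and 7.13 CPM in controls (log2 difference 1.60 ± 0.33, adjusted p = 0.11, and 0.000868 by DESeq2). Uhrf1 was next, at 2.78, 2.21 and 3.03 CPM against 0.452, 0.22 and 0.351 CPM (log2 difference 2.94 ± 0.65, adjusted p = 0.114, and 0.00205 by DESeq2). Both genes separated the groups fully in both region labels at 2 months.

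Pole, Mcm10 and Lig1 followed by p. Pole was at 3.22, 0.295 and 1.04 CPM against 0, 0.0549 and 0.117 CPM, and Lig1 at 7.97, 6.49 and 9.5 CPM against 2.43, 4.34 and 5.84 CPM (adjusted p = 0.303 and 0.501). Mcm10 reached 2.27 CPM in M2617, 0.246 CPM in M2621 and 0 in M2624 (adjusted p = 0.477). Of the 14 members called in the cortex-labelled libraries, Mcm6, Uhrf1, Lig1 and Pold1 did not overlap between the groups here, and the others did. E2f1 was at 2.34, 2.06 and 1.76 CPM against 2.26, 2.25 and 1.99 CPM, and Rrm2 at 3.51, 1.23 and 3.35 CPM against 0.735, 2.25 and 1.99 CPM. The mitosis genes had a median log2 difference of 1.90 and 0 calls, with 17 of 30 at an unadjusted p under 0.05 (56.7%) and the lowest adjusted p for Aurkb, at 0.114. Without the low-count filter Mcm6, Uhrf1, Pole and Mcm10 passed.

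The difference between the 2 region labels was itself tested. For genotype by region at 2 months 0 members passed, with 10 at an unadjusted p under 0.05 (25.6%, against 8.32% of all genes) and 0 by DESeq2, and 0.0241% of all genes were called. The median of this difference was -0.65, brainstem minus cortex. E2f1 and Mcm5 had the smallest p, with log2 differences of -1.88 ± 0.51 and -1.96 ± 0.56 (adjusted p = 0.301 and 0.314). With the mouse as a block in edgeR's quasi-likelihood fit, Mcm5 passed (adjusted p = 0.0448), the only member to do so.

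**Figure D4:**
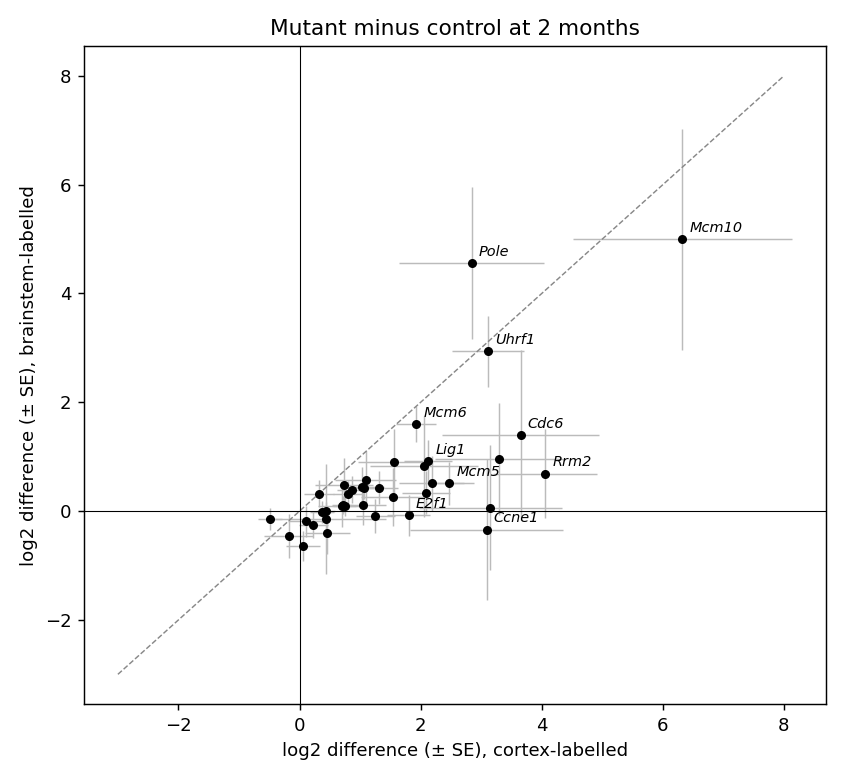
Log2 difference, mutant minus control at 2 months, in cortex-labelled (horizontal) and brainstem-labelled (vertical) libraries for each of the 39 genes, with standard errors; the dashed line marks equal differences. Most genes lie below the line, while Mcm6 and Uhrf1 lie near it, at 1.93 and 1.60 and at 3.11 and 2.94.

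At end-stage 2 mutants were compared with 2 controls. In cortex-labelled libraries 1 member was higher and 0 lower, against 1.83% and 2.18% of all genes, with a median log2 difference of -0.01. At an unadjusted p under 0.05 were 3 members (7.69%), against 17.8% of all genes. Above and below the controls with no overlap were 9 and 10 members, against 25.1% and 24% of all genes. The called member was Rfc5, at 36.2 and 35.1 CPM in mutants M1376 and M1524 and 14.5 and 17.3 CPM in controls M1375 and M1521 (log2 difference 1.16 ± 0.21, 2.24-fold, adjusted p = 0.00414). Without control M1375 it did not pass (adjusted p = 0.0965). Rfc5 shares 10.7% of its exon bases with Wsb2.

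The next members by p did not pass. Prim2, the large primase subunit, was at 7.36 and 5.72 CPM in mutants and 14.7 and 13.1 CPM in controls (log2 difference -1.08 ± 0.35, adjusted p = 0.098, and 0.0412 by DESeq2). Gins3 was at 3.87 and 4.88 CPM against 9.43 and 12 CPM (adjusted p = 0.185), and Tyms at 15.1 and 11.9 CPM against 16.9 and 22.8 CPM (adjusted p = 0.337). Cdt1 went the other way, at 19.6 and 22.1 CPM against 10.2 and 14.1 CPM (adjusted p = 0.287). The genes that rose most at 2 months were low in all 4 end-stage cortex-labelled libraries, with Rrm2 at 0.927 and 1.37 CPM in mutants and 2.65 and 3.97 CPM in controls.

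In end-stage brainstem-labelled libraries 0 members passed, with 2 at an unadjusted p under 0.05 (5.13%, against 10.4% of all genes) and 0 by DESeq2, against 0.151% of all genes called. E2f1 was at 1.11 and 1.19 CPM in mutants and 2.88 and 2.44 CPM in controls (log2 difference -1.20 ± 0.46, adjusted p = 0.352). Pold1 was at 22.8 and 19.9 CPM against 17 and 11.2 CPM, and Mcm4 at 18 and 22 CPM against 15.9 and 5.29 CPM (adjusted p = 0.38 and 0.49). Lig1 was at 4.61 and 4.71 CPM against 10.2 and 7 CPM (adjusted p = 0.541). Mcm10 was under 1.1 CPM in these 4 libraries (adjusted p = 0.609).

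The wider lists showed few calls at end-stage. Of all genes, 1.83% were called higher and 2.18% lower with the cortex label, and 0.151% in either direction with the brainstem label. Dna2, the nuclease that also rose at 2 months, was the only one of 50 further replication factors to pass, in both labels: 60.1 ± 10.3 CPM against 6.67 ± 4.79 in cortex-labelled libraries (SD, n = 2 each, adjusted p = 0.00981) and 12.6 ± 3.16 CPM against 0.846 ± 0.536 in brainstem-labelled ones (adjusted p = 0.0383). Next by p in that list were Pole4 in cortex-labelled libraries, at 31.2 ± 3.91 CPM against 51.1 ± 10.4, and Rnaseh2c in brainstem-labelled ones, at 20.3 ± 4.72 CPM against 36.2 ± 0.793. In the retinoblastoma and E2F list Cdkn2a, the gene of p16 and ARF, rose in cortex-labelled libraries from 0.156 ± 0.0703 to 3.05 ± 0.926 CPM (adjusted p = 0.0358), and E2f4 and Cdkn1c fell by 0.70 and 1.62 on the log2 scale. The control mean of Cdkn2a lies under the limit of 3 counts, which is 0.318 CPM in M1375 and 0.205 CPM in M1521. In brainstem-labelled libraries that list had 0 calls, with 8 of 32 at an unadjusted p under 0.05 (25%, against 10.4% of all genes). Ccnd2 and Myc had the smallest p there (adjusted p = 0.232 and 0.276). Mitosis genes had 0 calls in either label, with 3 and 2 of 30 at an unadjusted p under 0.05 (10% and 6.67%). The same shares over all genes were 17.8% and 10.4%. Foxm1 and Stmn1 led by p in cortex-labelled libraries (adjusted p = 0.23 and 0.232), and Pbk and Nusap1 in brainstem-labelled ones (adjusted p = 0.132 and 0.388).

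**Figure D5:**
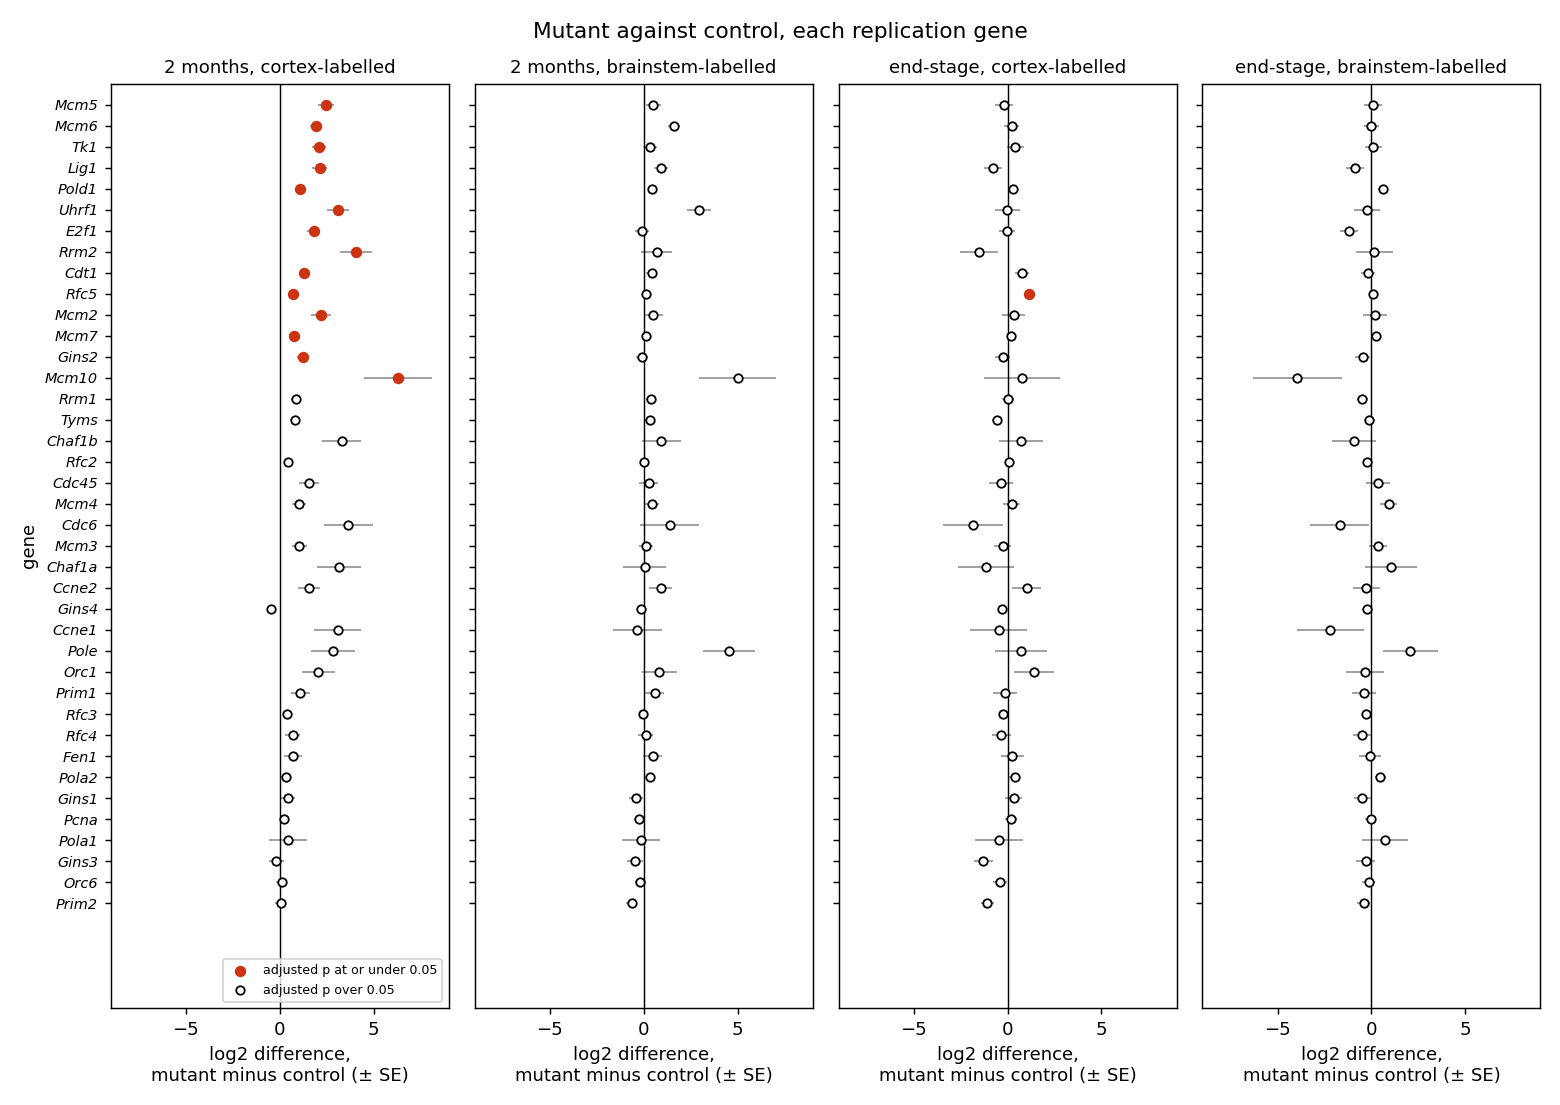
Log2 difference, mutant minus control, with its standard error for each of the 39 genes in the 4 genotype comparisons; filled red points passed the adjusted p threshold of 0.05. Passing points number 14, 0, 1 and 0 from left to right, and only Rfc5 passed in 2 panels.

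Stage was compared within each genotype. In mutants with the cortex label, 3 members were lower at end-stage than at 2 months and 0 higher, against 1.1% of all genes lower, and 22 of 39 lay below with no overlap, against 15% of all genes. On the log2 scale Rrm2 fell by 4.55 ± 1.06 (adjusted p = 0.0361), Mcm5 fell by 1.95 ± 0.47 (adjusted p = 0.0391) and Tyms fell by 1.26 ± 0.28 (adjusted p = 0.0261). These share the 2-month mutant libraries with the comparison above. Without M1376, M2621 or M2624 0 members passed, without M1521 1 did, and with the mouse as a block 6 did, adding E2f1 (adjusted p = 0.00975), Lig1 (0.0273) and Cdc6 (0.0487). Mutant mice at the 2 stages differ in age, and the end-stage age is not given in the sources used here.

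In mutants with the brainstem label 0 members passed, with 2 at an unadjusted p under 0.05 (5.13%, against 10.3% of all genes) and 0 by DESeq2, and 0.0422% of all genes were called. In controls with the cortex label 0 members and 0% of all genes passed, with 4 members at an unadjusted p under 0.05 (10.3%, against 8.63% of all genes) and 0 by DESeq2. In controls with the brainstem label 0 members and 0% of all genes passed, with 7 members at an unadjusted p under 0.05 (17.9%, against 8.24%) and 2 by DESeq2. Those 2 were Mcm6 and Uhrf1, higher at end-stage by DESeq2. Both stood higher in the end-stage brainstem-labelled controls, Mcm6 at 24.1 and 25.6 CPM and Uhrf1 at 2.69 and 2.23 CPM, than in the 2-month controls of that label given above.

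Whether the genotype difference itself changed with stage was tested as an interaction. In cortex-labelled libraries 0 members passed, with 16 at an unadjusted p under 0.05 (41%, against 9.91% of all genes) and 5 by DESeq2, and 0.265% of all genes were called. The median was -1.13, end-stage minus 2 months. Lig1 came closest, with -2.89 ± 0.62 (adjusted p = 0.0588, and 0.044 with the mouse as a block), then Mcm5 with -2.67 ± 0.63 (adjusted p = 0.0991) and Rrm2 with -5.60 ± 1.34 (adjusted p = 0.104). Leaving out mutant M1524 gave 3 calls, while the calls over all genes rose from 44 to 108. In brainstem-labelled libraries 0 passed, with 5 at an unadjusted p under 0.05 (12.8%, against 4.42%) and 0 by DESeq2, against 0.00603% of all genes. For genotype by region at end-stage 0 passed, with 1 at an unadjusted p under 0.05 (2.56%, against 5.31%) and 1, Rfc5, by DESeq2, against 0.0844% of all genes.

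Region labels were compared over both stages, brainstem minus cortex. In mutants 8 members were lower and 0 higher, against 5.65% of all genes lower, and in controls 1 was lower and 0 higher, against 0.53%. E2f1 was that 1 gene in controls (log2 difference -1.48 ± 0.29, adjusted p = 0.0206) and the strongest in mutants (-3.01 ± 0.31, adjusted p = 1.10e-05). Its 10 brainstem-labelled libraries held 1.11 to 2.88 CPM and its 10 cortex-labelled libraries 3.76 to 22.4 CPM, with no overlap in any mouse or group. The other 7 in mutants were Tk1 (-1.62), Rfc5 (-0.70), Uhrf1 (-1.92), Rfc2 (-0.44), Gins2 (-0.91), Cdt1 (-0.86) and Pold1 (-0.52), with adjusted p from 0.00255 to 0.0427. The mutant result includes the 2-month cortex-labelled mutant libraries, and all 8 but Rfc2 were called higher there against controls. Summed over members, the cortex-to-brainstem ratio was 1.11 and 1.12 in end-stage mutants M1376 and M1524. Region was not tested within each stage. The call of E2f1 in controls did not hold without M1375, M1521, M2618 or M2629. The count in mutants was 3 without M1376, M1524 or M2621 and 5 without M2624.

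Levels between members can be compared per kb of exon. Averaged over the 20 libraries, Gins4 led with 27.8 CPM per kb, followed by Pcna (17.7), Mcm3 (12.9), Rfc2 (12.8) and Mcm7 (7.32), and Pole was lowest with 0.0751. Members at 0 counts in at least 1 library numbered 7: Mcm10, Cdc6, Ccne1, Chaf1a, Chaf1b, Pole and Orc1. Where a library has no count, the limit of 3 counts lies between 0.147 and 0.318 CPM by library, for counting error only.

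How far each member followed the rest was described by its correlation with the sum of the other 38 over the 20 libraries, on log2(CPM + 1). Mcm5 had the highest r, 0.90, followed by Mcm7 and Mcm10 at 0.87, Uhrf1 at 0.85 and Mcm2, Gins2 and Tk1 at 0.84. Gins4 (-0.50), Prim2 (-0.24), Pola1 (-0.00), Gins3 (0.08) and Orc6 (0.11) had the lowest. After the group means were removed r stayed at 0.86 for Mcm2 and 0.81 for Mcm5 and was 0.06 for E2f1. For the other members with the highest r it fell, to 0.74 for Mcm7, 0.60 for Gins2, 0.54 for Mcm10, 0.44 for Uhrf1 and 0.31 for Tk1. Libraries share mice and depth, so these are descriptions.

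Promoter letters were counted in all RefSeq windows of 250 bases before a start. Windows were found for 31 of 39 members, with 36 windows in all. An E2F site of the 4 forms above, on either strand, stood in 25% of members' windows and in 1.86% of all 32851 windows. CCAAT stood in 55.6% and 33.8%, and TTTGAA, the letters of a cell cycle homology region, in 11.1% and 16%. The mitosis list held E2F letters in 4%, CCAAT in 84% and TTTGAA in 32% of its 25 windows. E2F letters were not particular to the members. They stood in 22.9% of the 35 windows of the retinoblastoma and E2F list and in 14.3% of the 49 windows of the further replication factors. E2F letters were in the window of 9 members: Mcm5, Mcm6, Uhrf1, Mcm7, Cdc6, Gins3, Orc1, Rfc3 and Pola1. Of these 9, 4 rose in 2-month cortex-labelled mutants. Of all 39 members 14 rose, but 8 of the 39 had no window, so these shares are not of like sets. A link between the letters and the rise was not tested. Lig1, Tk1, Rrm2, E2f1, Rfc5, Pold1, Cdt1, Mcm2 and Mcm10 rose with no such match in their windows, and Gins2 had no window. The lack of a match says only that these letters are not there.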

How the data were processed

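The authors deposited 1 table of raw read counts per gene for 20 libraries. Per the labels' protocols, RNA was amplified with SMART-Seq v4 and sequenced as paired reads. FastQC, Subread, edgeR and the mm10 build are named per the submitters' processing notes. The annotation, the strand setting and the way cells were purified are not given in the sources used here, so overlapping and antisense genes cannot be told apart.

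Of 55487 identifiers, 55394 matched a symbol, and the 93 others held 0.00123% of counts. Counts were filtered with filterByExpr, scaled by TMM and fitted with edgeR 4.0.16 (R 4.3.3) over 8 groups and 20 libraries by the quasi-likelihood test, in 14 comparisons, with Benjamini-Hochberg adjustment over 16595 genes and a threshold of 0.05. An SE is the absolute log2 difference divided by the square root of F. The scripts were tested on simulated data. A count of 0 is read against 3 counts (0.147 to 0.318 CPM), which covers counting error only.

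The 2 libraries of a mouse pair by the labels, and their deviations from group means had r from 0.10 to 0.26. In the end-stage groups of 2 mice these deviations mirror each other, so both mice of a group share 1 r. No r between different mice is given for comparison. Fits with the mouse as a block and DESeq2 1.42.0 were alternatives. Others were other size factors, no filter, the compared groups only, the sample record's genotypes and leaving out each mouse. For genotype, stage and genotype by stage the block was a limma 3.58.1 voom fit (consensus correlation 0.18). For genotype by region and for region it was edgeR's quasi-likelihood fit with a term for each mouse. Leaving out the 4 mice of differing genotype together was added after seeing the data.

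The members and lists were chosen with earlier results of these data known. Values by library are given for members called in any comparison, the 5 members of smallest p in each genotype comparison and the 5 of highest level per kb, and of each wider list the called genes and the 2 of smallest p at end-stage are named. Members named beyond that rule were chosen by role after their values were seen, as was Aurkb.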

Additional observations from a re-analysis of the deposited data

How the results depend on the processing

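Calls depended most on the genotype labels. Under the sample record the count of called members was 0 at 2 months in cortex-labelled libraries, 0 for stage in mutants with that label, 1 for genotype by stage with that label (Rfc5, log2 difference 1.61) and 1 for region in mutants. The other replication factors, the retinoblastoma and E2F list and the mitosis list each had 0 calls. Differences of the opposite sign under that reading, in cortex-labelled libraries at 2 months, were Mcm5 -0.75, Mcm6 -1.04, Lig1 -0.12, Tk1 -0.18, Pold1 -0.43, Mcm2 -0.79, Mcm7 -0.46, Cdt1 -0.55, Gins2 -0.75, Rfc5 -0.45, Rrm2 -0.71, Uhrf1 -1.45 and E2f1 -0.58. In brainstem-labelled libraries they were Mcm6 -1.02, Uhrf1 -0.47, Pole -1.65, Mcm10 -6.83 and Lig1 -0.08. Without the 4 mice of differing genotype, where 1 mutant faces 1 control at 2 months and each is assumed to vary like the other groups, the counts were 0 at 2 months with the cortex label, also for the 3 wider lists, 0 for stage in mutants with that label, 0 for region in controls and 2 for region in mutants. Mcm10 at 2 months with the brainstem label then turned to -3.07, and at end-stage it turned to 2.24 without M1521, in a range from -6.16 (without M1376). All genes called at 2 months with the cortex label numbered 904, against 1 under the record, 1 without those 4 mice, 1606 by DESeq2 and 1551 without the filter.

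DESeq2 called 22 members at 2 months and 2 at end-stage with the cortex label, 2 at 2 months with the brainstem label, 6 for stage in cortex-labelled mutants, 2 for stage in brainstem-labelled controls, 5 for genotype by stage with the cortex label, 1 for genotype by region at end-stage and 2 for region in controls, and 11 of the retinoblastoma and E2F list. Without the filter on low counts the members called were 4 at 2 months with the brainstem label, 10 and 1 for stage in cortex-labelled and brainstem-labelled mutants, 1 and 5 for stage in controls, 9 and 3 for genotype by stage, 3 for genotype by region at 2 months and 2 for region in controls. With the mouse as a replicate block they were 6 for stage in cortex-labelled mutants, 1 for genotype by stage with that label and 1 for genotype by region at 2 months. The block moved no other count of called members by more than 1.5 times. Counts over all genes under these settings are not given outside 2 months with the cortex label. The counts here therefore do not single out the members.

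Leaving out each mouse gave 8 to 14 members at 2 months and 0 to 1 at end-stage with the cortex label, 0 to 3 for stage in mutants and for genotype by stage with that label, 0 to 1 for region in controls, 3 to 9 for region in mutants and 0 to 0 in the other comparisons. The other replication factors ranged from 6 to 10, the retinoblastoma and E2F list from 4 to 7, the mitosis list from 11 to 20 and all genes from 462 to 962 at 2 months with the cortex label. With that label all genes ranged from 180 to 672 at end-stage, 96 to 285 for stage in mutants and 10 to 108 for genotype by stage. For region they ranged from 18 to 133 in controls and from 666 to 1710 in mutants. The cause of these changes was not tested. For 3 named genes of low count the fit on the compared groups only gave no value.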
